A study of Rattus norvegicus with 6 samples.

Results

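The members described here are 101 microRNA precursor genes of the rat brain, together with the genes that host them. Of 30076 named symbols in the deposited tables, 451 carry a microRNA name, and the members are those listed above 0 FPKM in at least 3 of the 6 libraries. FPKM is a fragment count divided by transcript length and by library size. The members were thus chosen by the FPKM values of all 6 libraries, and their detection is a description and not a finding. Of the 451 symbols, 260 were listed at 0 in every library, 58 were above 0 in 1 library and 32 in 2. Another 20 were above 0 in 3 libraries, 19 in 4, 12 in 5 and 50 in all 6. The 20 symbols just inside the limit had a median of 1.85 FPKM over the 6 libraries, and the 32 just outside it had a median of 1.28 FPKM.

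The study took a coronal section, 1 mm thick, of brain, labelled as prefrontal cortex, from F344 rats that were male and 18 months old, and made 1 RNA library from each rat. Manipulated rats (replicates 4, 5 and 6) were treated by hand on the head for 7 days (cranial osteopathic manipulation) under 1.5 to 3% isoflurane. Untreated rats (replicates 1, 2 and 3) were anaesthetised too and were not manipulated. The comparison asks which genes differ in brain tissue of aged rats after the treatment. All log2 fold changes below are manipulated minus untreated values of log2(FPKM + 1), a scale that understates changes of low genes.

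A microRNA is cut from a hairpin in a longer transcript, first by the nuclear enzyme Drosha with its partner Dgcr8, then, after export by Xpo5, by Dicer1. The short product is loaded on an Argonaute protein and pairs through its seed, bases 2 to 8, with target messenger RNAs. Many hairpins lie in introns or exons of a host gene and are transcribed with it, and others have primary transcripts of their own. In brain, miR-124 is the best known neuronal microRNA, miR-9 and miR-137 act in neuronal differentiation, and miR-134 and miR-138 act at dendritic spines. The labels name no small-RNA library, so the values below describe hairpin, primary and host transcripts and not mature microRNAs.

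Mature sequences came from RefSeq (GRCr8), which had an entry for 93 of the 101 members and a mature sequence for 84 of them, 133 sequences in all. The first set belongs to members in rows of their own that passed the test described below with all libraries or with all but 1. Passing is no finding here. The fall of Mir3552 was built into its selection, and the others passed only with the library left out that went against the difference. Capitals mark the seed, bases 2 to 8, and sequences run 5′ to 3′.
rno-miR-3552: aGGCUGCAggcccacuucccu
rno-miR-336-5p: uCACCCUUccauaucuagucu
rno-miR-3576: aCACACCAaggauaauuucucc
rno-miR-384-5p: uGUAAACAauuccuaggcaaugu
The second set belongs to members with a known role in neurons or in the let-7 family, and ends with miR-9b-5p, for which no such role is claimed.
rno-miR-134-5p: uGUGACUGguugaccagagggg
rno-miR-137-3p: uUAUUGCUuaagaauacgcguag
rno-let-7a-5p: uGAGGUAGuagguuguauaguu
rno-miR-9b-5p: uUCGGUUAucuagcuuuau
The third set comes from hairpins inside the transcripts of Ctdsp1, Gria2 and Dgcr8, and shows the products that a host row stands in for.
rno-miR-26b-5p: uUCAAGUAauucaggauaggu
rno-miR-2985: uGUUAUAGuaucccaccuaccc
rno-miR-1306-3p: gACGUUGGcucugguggugaug
The last set gives the seeds that members share. Among the mature sequences of members, a seed was shared by Mir376b with Mir376c and by Mir3597-1 with Mir3597-3, whose common product is the miR-9b-5p printed above.
rno-miR-376b-5p: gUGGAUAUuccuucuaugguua
rno-miR-376c-5p: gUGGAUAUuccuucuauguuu

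Members were seldom measured apart from other transcripts. In all 6 libraries, 36 members shared a row with a named gene and 9 shared a row with other partners, such as clone-named loci or small RNA genes. Another 38 had a row of their own in some libraries and a joined row in others. The remaining 18 had a row of their own in all 6, of which 9 were the bare hairpin throughout and 9 lay in a longer assembled locus in some libraries. Fragments of members in a joined row could not be told from those of their partners. RefSeq places 49 members in a protein-coding gene and 34 in a long non-coding RNA, with no host for 10 and no entry for 8. A named host in the deposited tables, in at least 3 libraries, was found for 48 members, and for 35 of these RefSeq names the same host.

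Between 78 and 80 members were above 0 in a manipulated library, and between 85 and 89 in an untreated one. The counts were 78, 78 and 80 in manipulated rats and 86, 89 and 85 in untreated rats, so the groups did not overlap. The deposited tables as a whole separated the groups in the same direction. They held 67347, 48931 and 68355 rows in manipulated and 114717, 83240 and 98031 rows in untreated libraries. Of all microRNA symbols, 99, 91 and 88 were above 0 in manipulated and 116, 115 and 109 in untreated libraries. Rows shared with other partners held 13, 22 and 16 of the detected members in manipulated and 33, 23 and 26 in untreated libraries. The number of distinct rows behind the detected members was 74, 68 and 72 in manipulated libraries and 69, 78 and 70 in untreated ones, and here the groups overlapped. When a member was counted only where the lower bound of its interval was above 0, the counts overlapped, with 42, 41 and 47 members in manipulated and 41, 39 and 45 in untreated libraries.

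**Figure D1:**
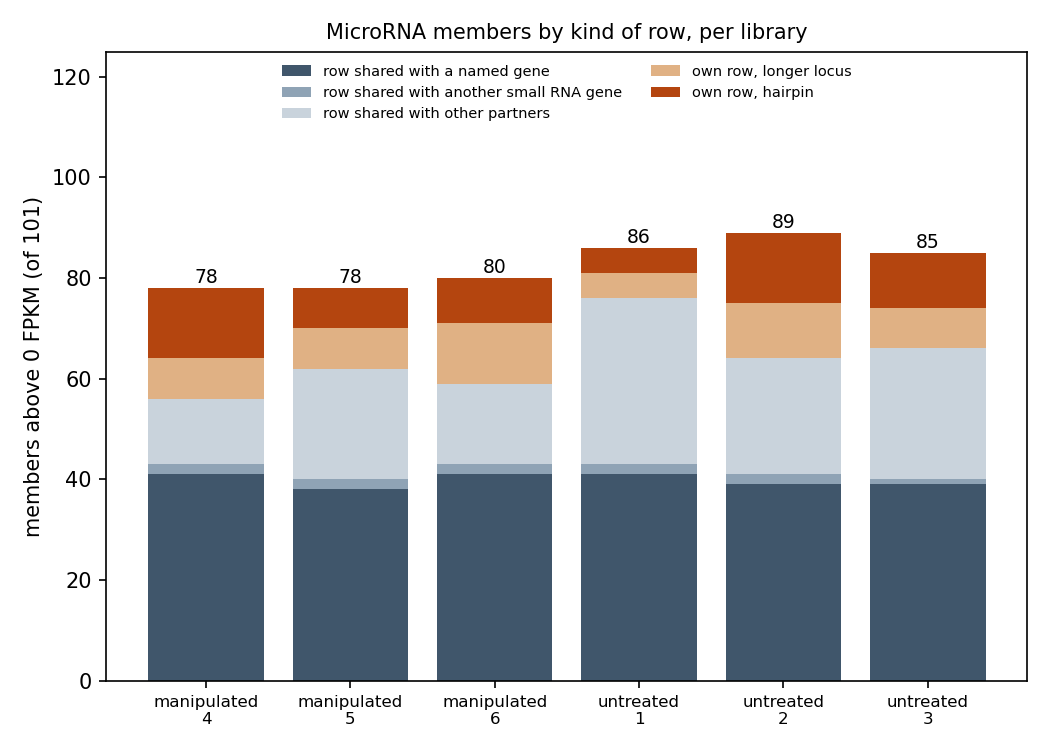
Number of the 101 members above 0 FPKM in each library (y axis), divided by the kind of row that names them, with manipulated libraries at the left. The totals were 78, 78 and 80 in manipulated and 86, 89 and 85 in untreated libraries, and rows shared with a named gene held 38 to 41 members in every library.

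Of the 101 members, 81 had a lower and 20 a higher mean in manipulated rats. All genes leaned the same way, with a median log2 fold change of -0.36 over 10657 genes tested and 87.0% of them below 0, against 80.2% of members with a lower mean. The median of all genes was 0.0060 when libraries were put on one scale by the median of gene ratios (median-ratio scaling), where 49.0% of genes lay below 0, so changes are read here against the shift of -0.36. In 25 members (24.8%) all manipulated libraries lay below all untreated ones and in 1 (0.990%) above them. Over all genes tested the shares were 23.7% and 1.08%, so the members' shares lay close to the background. Members that share a row repeat the same value and do not count as separate observations. Markers of other brain regions differed between the sections. Summed FPKM of 9 markers of thalamic and hypothalamic neurons was 14.5 to 17.1 in manipulated and 113 to 161 in untreated libraries, and 7 of the 9 fell by limma's adjusted p, with Pmch, which encodes melanin-concentrating hormone, listed at 0 in manipulated replicate 6. Markers of striatal neurons, 9 measured, summed to 77.4 to 199 FPKM in manipulated and 45.2 to 69.3 FPKM in untreated libraries, with 0 of 9 past the adjusted p. Choroid plexus markers, 7 measured, summed to 240, 1240 and 1005 FPKM in manipulated and 463, 460 and 468 FPKM in untreated libraries, with 0 of 7 past the adjusted p. The part of these markers in the results below was not tested. In a bulk section, fewer cells of a type and less RNA per cell cannot be told apart.

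Of the 14 members with a row of their own and a mean of at least 1 FPKM, 1 fell in manipulated rats by limma with Benjamini-Hochberg adjustment, and 3 had an unadjusted p under 0.05. Over all genes tested 0.357% passed, 0.272% by falling, and 15.1% had an unadjusted p under 0.05. With rows that name several genes kept, 34 joined rows carrying another 36 members could be tested as well, and the count stayed at 1 of 48 rows, against 0.346% of all rows. The 1 call, Mir3552, entered the members through the untreated libraries alone, so this count is a description and not a finding. The remaining 51 members could not be tested, because their row changed partners or place between libraries or because the mean was under 1 FPKM.

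The member that passed was Mir3552, a hairpin of 105 bases inside Htr2c, the gene of the serotonin receptor 2C (chrX:118121374-118121478, Rnor_6.0). Mir3552 was listed at 0 in all 3 manipulated libraries and had 5.40, 5.42 and 11.9 FPKM in the untreated libraries. The groups did not overlap, and it entered the members through the untreated libraries alone, so a difference of this kind was built into its selection. On the log2 scale it fell by 3.01 (SE 0.30), at a limma adjusted p of 0.0025. That size depends on the pseudocount of 1 and is no bound on the change. Rows covering the hairpin, that of Htr2c among them, were also summed. The sums were 13.6, 6.52 and 14.1 FPKM in manipulated and 14.2, 9.66 and 16.4 FPKM in untreated libraries. These overlapped, with a difference of -0.25 in mean log2(FPKM + 1). Here and below, such sums add values of unlike scale, since a single fragment weighs far more in a hairpin than in a host. They measure neither gene alone.

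The interval around each FPKM gives the number of fragments it implies, if the bounds are taken as 2 SDs of a Poisson count. For Mir3552 these numbers were 1, 1 and 2 fragments in the untreated libraries. The call therefore rests on 4 fragments in all, and the lower bound of each interval was 0. The call ended without a filter on low values, at an adjusted p of 0.0587, with 0.0587 the highest over the 12 settings that kept the gene and 1.53e-08 the lowest.

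Htr2c itself did not follow its hairpin. It had 13.6, 6.52 and 14.1 FPKM in manipulated and 8.77, 4.24 and 4.53 FPKM in untreated libraries. Manipulated replicates 4 and 6 were above every untreated library and replicate 5 lay within their range. Its log2 fold change was 0.85 (SE 0.36), at a limma adjusted p of 0.326. Median-ratio scaling gave 1.27, and there every manipulated library lay above the untreated range, at an adjusted p of 0.347. Htr2c is strongly expressed by choroid plexus epithelium, whose markers are given above. In manipulated replicates 4, 5 and 6 the marker sums were 240, 1240 and 1005 FPKM, beside 13.6, 6.52 and 14.1 FPKM of Htr2c. The part of choroid plexus in the values of Htr2c was not tested.

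**Figure D2:**
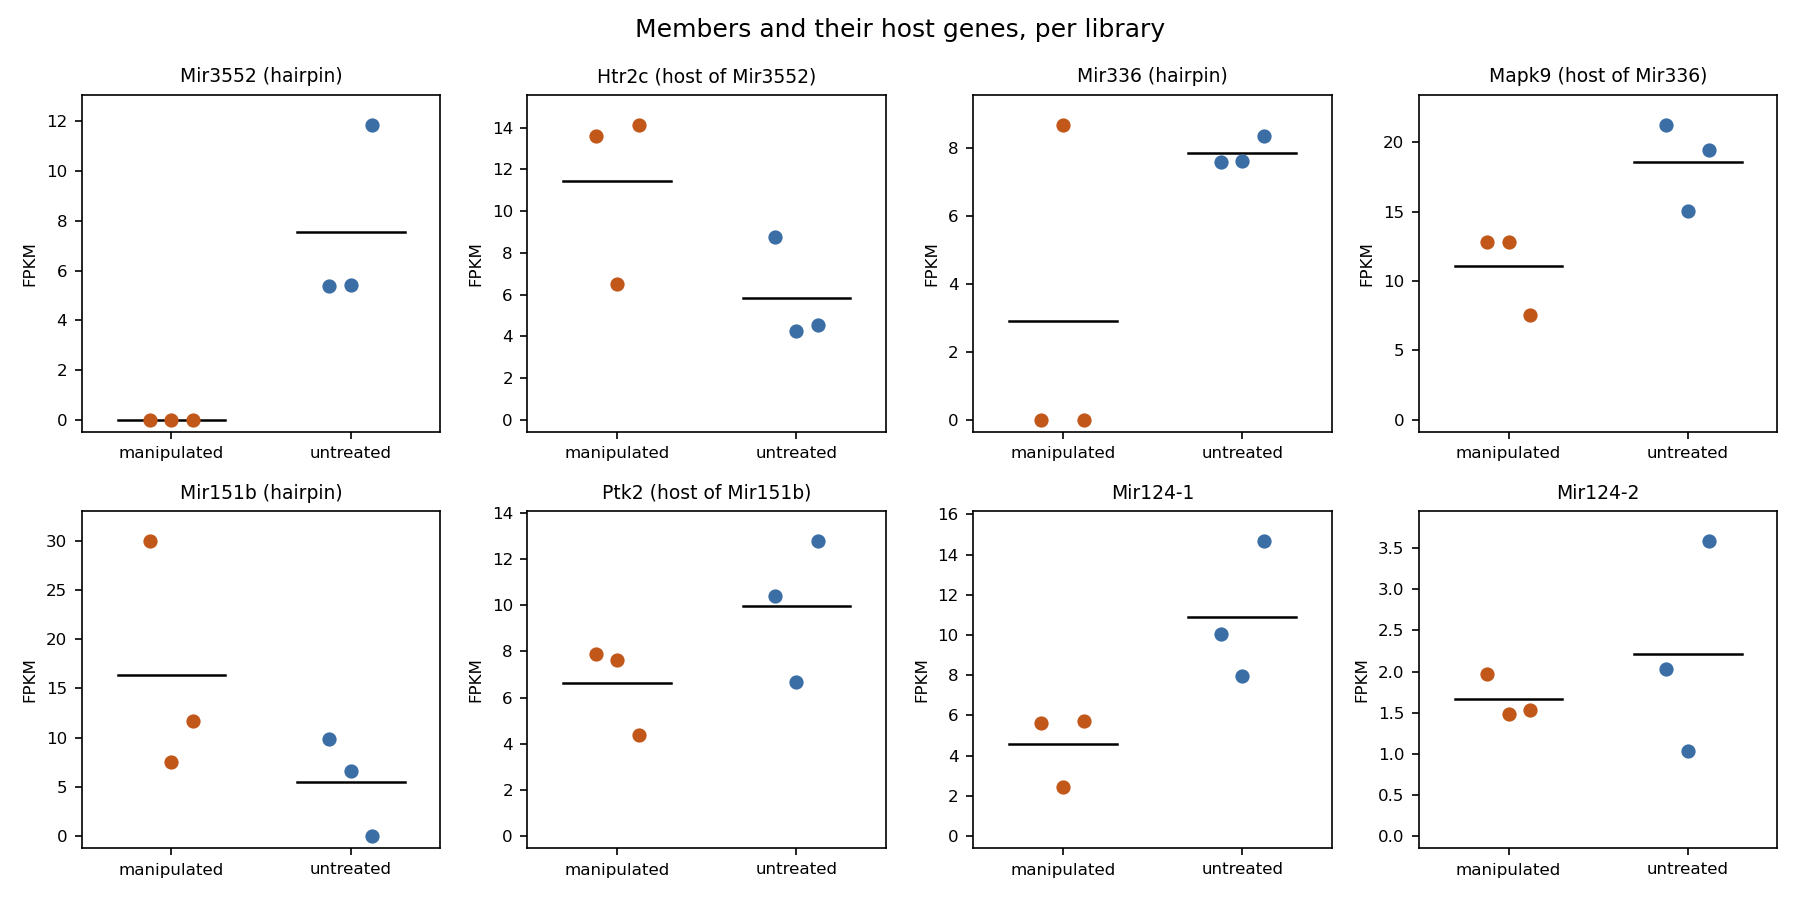
FPKM of members and host genes in each library (points) with group means (lines), manipulated at the left of each panel. Mir3552 is listed at 0 in all manipulated libraries while Htr2c is higher in 2 of them than in any untreated library. The listed values of Mir124-1 and Mapk9, without their intervals, separate the groups where those of Mir151b, Ptk2 and Mir124-2 do not.

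The same low counts lay behind most bare hairpins. Members had 61 hairpin rows above 0 over the 6 libraries. The implied number was 1 fragment in 38 of them, 2 in 5, 3 in 7, 4 to 10 in 3 and under 1 in 3, within 0.01 of a whole number for those from 1 to 3. In 54 of the 61 the lower bound of the interval was 0. Because a hairpin is so short, a single fragment was worth between 2.26 FPKM, at 133 bases, and 18.0 FPKM, at 79 bases, over the 79 microRNA rows of 1 fragment. In unnamed loci of 900 to 1100 bases a fragment was worth a median of 0.0213 FPKM. A hairpin at several FPKM is thus not comparable with a messenger RNA at the same value.

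**Figure D3:**
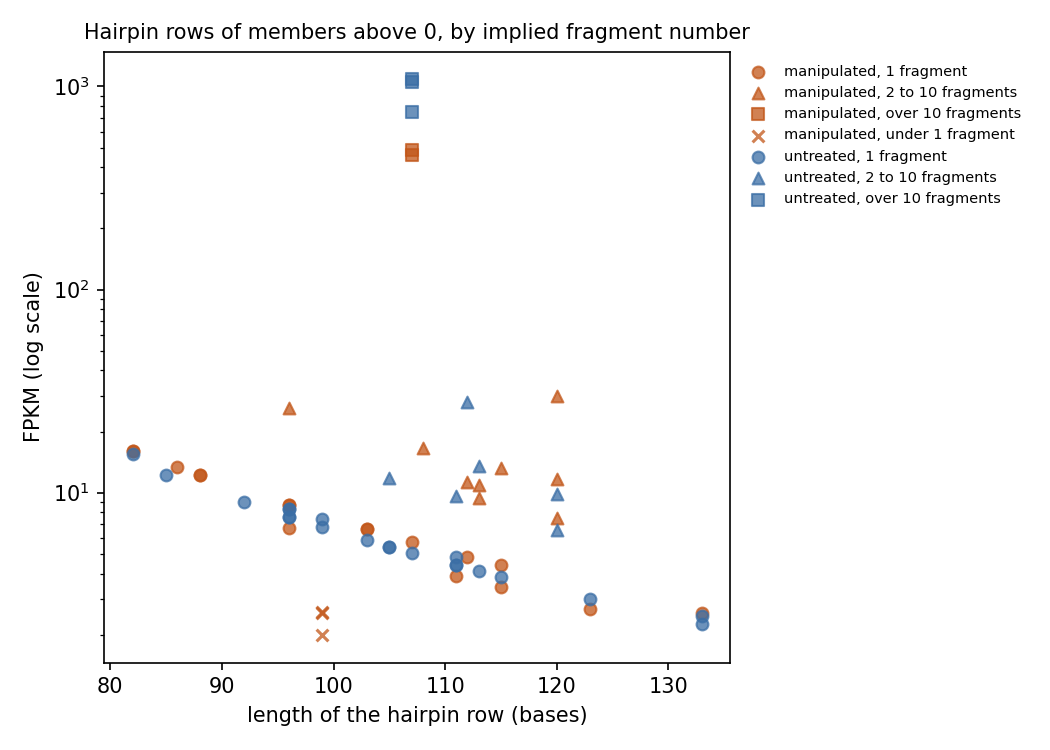
FPKM of each hairpin row of a member above 0 (y axis, log scale) by the length of the row in bases (x axis), coloured by group and shaped by the implied number of fragments. The rows of 1 fragment lie on a narrow falling band in both groups, and the 5 rows over 10 fragments all belong to Mir3556b-2.

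Among the other hairpins inside host genes, none passed the adjusted p with all libraries in. Mir336, in Mapk9, was listed at 0, then at 8.69 FPKM and again at 0 in manipulated replicates 4, 5 and 6, and had 7.59, 7.61 and 8.34 FPKM in untreated libraries. Each value above 0 was 1 implied fragment, so a single manipulated library was at the level of the untreated ones. The log2 fold change was -2.05 (SE 0.74), with an adjusted p of 0.322, and without manipulated replicate 5 it was -3.14 with an adjusted p of 4.75e-04. The latter rests on 1 fragment in each untreated library. Rows covering the hairpin, that of Mapk9 among them, summed to 12.8, 21.5 and 7.56 FPKM in manipulated and 28.9, 22.7 and 27.8 FPKM in untreated libraries. These sums did not overlap, with a difference of -0.98 in mean log2(FPKM + 1). They add single hairpin fragments to Mapk9, which separated the groups by itself, and so give no separate comparison of the hairpin.

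Mapk9, which encodes the stress-activated kinase JNK2, had 12.8, 12.8 and 7.56 FPKM in manipulated and 21.3, 15.1 and 19.4 FPKM in untreated libraries. The groups did not overlap, with or without median-ratio scaling. As deposited the log2 fold change was -0.72 (SE 0.29), at a limma adjusted p of 0.326. The scaling gave -0.29, at an adjusted p of 0.356.

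Mir151b, in the focal adhesion kinase gene Ptk2, ran the other way from its host in mean value. The hairpin had 30.0, 7.51 and 11.7 FPKM in manipulated and 9.84, 6.58 and 0 FPKM in untreated libraries, and the groups overlapped (log2 fold change 1.78, SE 0.82, adjusted p 0.326). With median-ratio scaling the hairpin's ranges no longer overlapped, manipulated above untreated, at a log2 fold change of 2.12. Ptk2 had 7.87, 7.63 and 4.36 FPKM in manipulated and 10.4, 6.66 and 12.8 FPKM in untreated libraries, also overlapping (log2 fold change -0.52, SE 0.31, adjusted p 0.350). The difference between hairpin and host was not tested.

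Mir3557, in the coactivator gene Ppargc1b, was listed at 9.37, 0 and 10.97 FPKM in manipulated and 0, 4.11 and 13.5 FPKM in untreated libraries. Ppargc1b had overlapping ranges, at 1.88 ± 0.389 FPKM in manipulated and 1.81 ± 0.296 FPKM in untreated rats (SD, n = 3 each), and lay above the untreated range with median-ratio scaling (log2 fold change 0.32). Mir3065, in the kinase gene Aatk, was above 0 in 1 manipulated library, at 6.64 FPKM, and in 2 untreated ones, at 2.29 and 5.82 FPKM. Aatk had 14.9 ± 2.03 FPKM in manipulated and 18.8 ± 2.36 FPKM in untreated rats (SD, n = 3 each), with overlapping ranges. Dnm1, the synaptic vesicle gene dynamin 1 that covers Mir199b, had 87.1 ± 11.4 FPKM in manipulated and 120 ± 15.1 FPKM in untreated rats, with ranges that did not overlap and an adjusted p of 0.361. With median-ratio scaling its log2 fold change was 0.0052 and the ranges overlapped.

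Hairpins outside named hosts varied as widely. Mir3576, of the chromosome 6 cluster described below, had 13.2, 4.40 and 3.43 FPKM in manipulated libraries and 0, 3.85 and 0 FPKM in untreated ones (log2 fold change 2.04, SE 0.64, adjusted p 0.309). Mir384, an X-linked member, had 12.2, 12.2 and 0 FPKM in manipulated and 1.70, 2.48 and 2.80 FPKM in untreated libraries. Both sets overlapped as deposited, and with median-ratio scaling Mir3576 lay above the untreated range in every manipulated library (log2 fold change 2.22). Each passed the adjusted p when 1 library was left out: Mir3576 without untreated replicate 2, at 0.0475, and Mir384 without manipulated replicate 6, at 0.0197. The values of 12.2 FPKM of Mir384 were each 1 implied fragment on the bare hairpin of 88 bases. For Mir3576, manipulated replicates 5 and 6 and untreated replicate 2 also held 1 implied fragment each. Its separation after scaling thus compares single fragments, and its pass left out the only untreated library above 0. In some other libraries the row of Mir384 was a longer assembled locus, so its values describe unlike features. Mir142, known from blood cells, had 3.91 FPKM in manipulated replicate 6 alone and 4.40 and 9.64 FPKM in untreated replicates 2 and 3. Mir344i overlapped between the groups, with 2.57, 2.58 and 2.00 FPKM in manipulated and 0, 6.77 and 7.42 FPKM in untreated libraries.

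The highest member by far was Mir3556b-2, a hairpin of 107 bases (chr1:38238896-38239002, Rnor_6.0). It had 486, 0 and 459 FPKM in manipulated and 1056, 747 and 1085 FPKM in untreated libraries. The implied numbers were 79.3, 0 and 95.5 fragments in manipulated and 188, 136 and 178 in untreated libraries, so here counting error is small. All manipulated libraries lay below all untreated ones, but the log2 fold change of -3.97 had an SE of 1.97 and a limma adjusted p of 0.331, and the 0 of manipulated replicate 5 set most of it: without that library the value was -1.006.

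A second locus holds genes of like names. On chromosome 1, Mir29b-3 and Mir3556b-2 start 520 bases apart, and on chromosome 13 Mir29b2 and Mir3556b start 520 bases apart as well. Whether both places share sequence, and whether reads were divided between them, was not tested, so the level at either is uncertain. Mir3556b was listed at 747 FPKM in manipulated replicate 6 and at 0 in manipulated replicates 4 and 5 and untreated replicates 2 and 3. In untreated replicate 1 it shared a row with Cd46 and Cr1l at 2.31 FPKM. In RefSeq miR-3556b lies opposite the miR-29c hairpin, and its mature form shares a run of 20 bases with the reverse complement of miR-29c-3p and of 17 bases with that of miR-29b-3p. Without strand, reads of the opposing transcripts cannot be told apart. Both are printed here to show the complement.
rno-miR-3556b: aCCGAUUUcaaauggugcua
rno-miR-29c-3p: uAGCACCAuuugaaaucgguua

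The miR-124 genes had no mature entry in the sequence table, and all 3 were members. Mir124-1, in a locus of chromosome 15 that mostly carries the clone name AABR07018226.1 as well, had 5.63, 2.42 and 5.74 FPKM in manipulated and 10.05, 7.94 and 14.7 FPKM in untreated libraries. The groups did not overlap. The row ran over 3376 to 6710 bases in manipulated libraries and over 5724 to 20854 bases in untreated ones, and stood alone in manipulated replicate 6, so the gene could not be fitted across libraries. In manipulated replicate 4 its interval ran from 0 to 28.9 FPKM, at an implied 0.234 fragments, and so covered every untreated value. Mir124-2, on chromosome 2, was assembled as its own locus of 7027 to 10493 bases in every library. It had 1.97, 1.49 and 1.53 FPKM in manipulated and 2.03, 1.03 and 3.59 FPKM in untreated libraries. These overlapped (log2 fold change -0.20, SE 0.31, adjusted p 0.661), and the sign turned with median-ratio scaling, at 0.12. Mir124-3 was above 0 in manipulated replicate 5, at 1.47 FPKM, and in untreated replicates 1 and 3, at 1.78 and 2.08 FPKM.

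Other brain microRNAs were low. Mir137 had 1.43, 0 and 1.05 FPKM in manipulated and 0, 1.01 and 0.772 FPKM in untreated libraries, and Mir138-1 had 1.29, 0 and 0.417 FPKM in manipulated and 1.13, 0.840 and 0.862 FPKM in untreated ones. Both overlapped. Neither Mir128 gene was detected, Mir132 and Mir212 were above 0 in manipulated replicate 4 and untreated replicate 1, and Mir204 only in untreated replicate 3, which left these outside the members. Of 9 let-7 symbols 6 were above 0 in some library and 1 was a member. Mirlet7a1 had 2.14, 5.89 and 0.687 FPKM in manipulated and 2.16, 15.0 and 1.68 FPKM in untreated libraries, from loci of 8515 to 11192 bases. No symbol Mir9 was listed. Mir3597-1, a source of miR-9b, had 16.7, 0 and 1.39 FPKM in manipulated and 1.13 FPKM in untreated replicate 2 alone. Despite the name, miR-9b does not stand in for miR-9 here, and their sequences were not compared.

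The largest cluster lay in the imprinted Dlk1-Dio3 region of chromosome 6, from which 24 members came. Where hairpin positions were listed, for 20 of them, they ran over chr6:133733240-133898905 (Rnor_6.0). The region makes Meg3, a maternally expressed long RNA, and a long array of microRNAs abundant in neurons. Above 0 were 9, 20 and 15 of these members in manipulated libraries and 21, 18 and 18 in untreated ones. These detections came from 9, 12 and 10 distinct rows in manipulated and 8, 10 and 7 in untreated libraries, since up to 7 members shared a row and rows reached 231840 bases.

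Values in the cluster moved with the rows. Mir410 was at 0.805, 1.23 and 0.766 FPKM in manipulated and 76.1, 1.24 and 1.49 FPKM in untreated libraries, and the 76.1 FPKM of untreated replicate 1 came from a single row that also named Mir377, Mir412, Mir541 and Mir770. The groups did not overlap, with 1.23 and 1.24 FPKM in the nearest manipulated and untreated libraries. Mir770, which RefSeq places in Meg3, had 51.6, 23.4 and 36.1 FPKM in manipulated and 76.1, 85.3 and 30.9 FPKM in untreated libraries, which overlapped. Mir134 had 1.27, 6.65 and 1.04 FPKM in manipulated and 0.763, 1.35 and 1.92 FPKM in untreated libraries, and its highest value was a bare hairpin. Mir377 was at 0, 0 and 36.1 FPKM in manipulated and 76.1, 1.24 and 1.49 FPKM in untreated libraries. Mir3543 was at 1.18, 0.656 and 0 FPKM in manipulated and 2.59, 0 and 112 FPKM in untreated libraries, so a single library set its mean.

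In the rows that name them, Mir379 and Mir667 of the same cluster also separated the groups. Mir379 had 0, 0.510 and 0 FPKM in manipulated and 12.2, 0.732 and 1.21 FPKM in untreated libraries. Mir667 had 0, 0.603 and 0 FPKM in manipulated and 0.964, 8.97 and 1.21 FPKM in untreated libraries. Every row covering the hairpin of Mir379 summed to 0.798, 0.510 and 36.1 FPKM in manipulated and 88.3, 0.732 and 1.21 FPKM in untreated libraries. For Mir667 the sums were 0.817, 0.603 and 36.1 FPKM in manipulated and 77.8, 8.97 and 1.21 FPKM in untreated libraries. Both sums overlapped between the groups. In all, by the rows that name them, 6 of the 24 members lay below the untreated range in every manipulated library and 20 of 24 had a lower mean. Over all genes tested 23.7% did so and 87.0% had a log2 fold change below 0.

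Outside the cluster, Mir125b1, of the Mir100 and Mir125b1 locus on chromosome 8, was listed at 0 in all manipulated libraries and at 7.27, 2.35 and 25.7 FPKM in untreated ones, and so entered the members through the untreated libraries alone. In manipulated rats the hairpin had a row apart from the locus around it. Every row covering the hairpin summed to 2.13, 2.37 and 23.6 FPKM in manipulated and 7.27, 2.35 and 25.7 FPKM in untreated libraries, and so overlapped.

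Hosts that share a row with their microRNA moved with the genes at large. In 28 rows that name a host and a member together, with the same names in all 6 libraries and a mean of at least 1 FPKM, 0 passed limma's adjusted p and 3 had an unadjusted p under 0.05. Of all rows tested, 15.1% had such a p. All 28 had log2 fold changes below 0, from -0.87 to -0.10 with a median of -0.36, the same as the median of all rows tested, 86.9% of which lay below 0. With median-ratio scaling 15 of the 28 were above 0 and 13 below, and the median was 0.0071. As deposited, 13 of the 28 did not overlap and lay below the untreated range, where 23.7% of all rows did. With the scaling 1 lay below and 2 above, against 8.92% and 10.7% of all rows. Together with hosts in rows of their own, 0 of 35 passed and 5 had an unadjusted p under 0.05, against 0.346% and 15.1% of all rows tested.

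**Figure D4:**
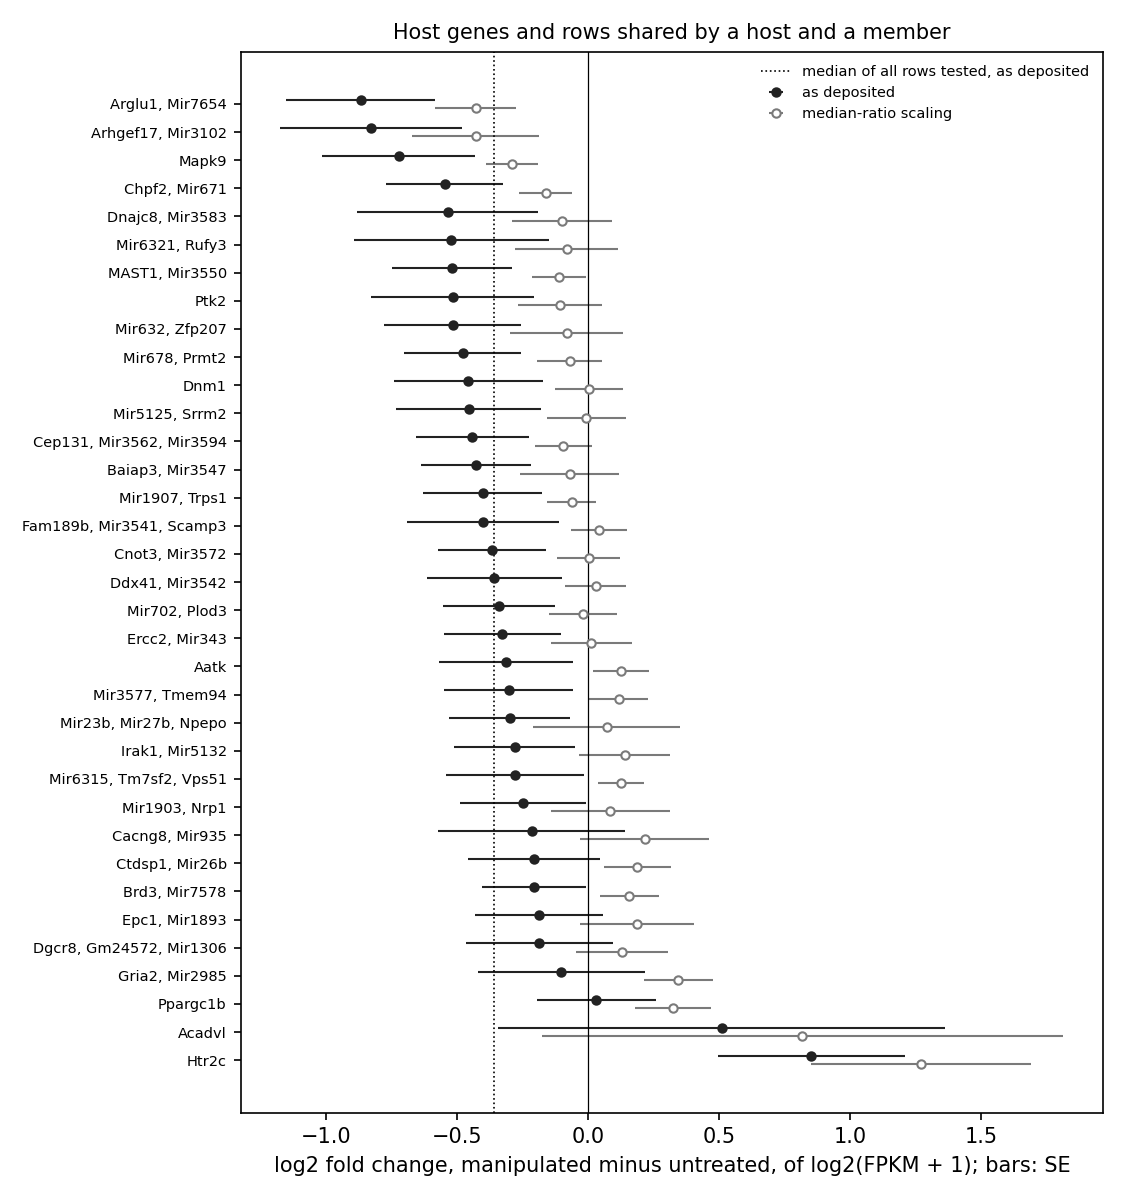
Log2 fold change, manipulated minus untreated, with SE, of 7 host genes in rows of their own and 28 rows that name a host and a member, as deposited (filled) and with median-ratio scaling (open). The filled points centre on the dotted median of all rows, -0.36, and the open ones on 0, with Htr2c highest in both.

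The lowest of these rows was that of Arglu1, a coactivator and splicing regulator, with Mir7654. It had 14.3, 10.8 and 9.96 FPKM in manipulated and 25.3, 16.5 and 25.01 FPKM in untreated libraries, without overlap. Its log2 fold change was -0.87 (SE 0.28), at a limma adjusted p of 0.315.

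The row of Arhgef17 with Mir3102 had 8.50, 8.22 and 3.00 FPKM in manipulated and 11.8, 10.9 and 11.9 FPKM in untreated libraries, also without overlap. Here the log2 fold change was -0.83 (SE 0.35), at a limma adjusted p of 0.325. Chpf2, of chondroitin synthesis, with Mir671 had 4.51, 4.31 and 3.18 FPKM in manipulated and 6.38, 5.27 and 7.26 FPKM in untreated libraries. Median-ratio scaling gave -0.43 for Arglu1, -0.43 for Arhgef17 and -0.16 for Chpf2, and the rows of Arhgef17 and Chpf2 then overlapped.

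At the upper end stood Gria2, the AMPA receptor subunit gene, with Mir2985. It had 27.3, 31.2 and 16.4 FPKM in manipulated and 31.3, 22.6 and 24.8 FPKM in untreated libraries. The groups overlapped, and the log2 fold change was -0.10 (SE 0.32) as deposited and 0.34 with median-ratio scaling. Ctdsp1, a small phosphatase gene, with Mir26b had 5.35 ± 1.15 FPKM in manipulated and 6.35 ± 1.60 FPKM in untreated rats (SD, n = 3 each). The row of Npepo, an aminopeptidase gene, with Mir23b and Mir27b had 3.72, 2.05 and 3.57 FPKM in manipulated and 4.20, 3.90 and 3.81 FPKM in untreated libraries, without overlap, and its log2 fold change of -0.30 became 0.07 with the scaling.

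The other host rows among the highest members were those of Ddx5 with Mir3064, Srrm2 with Mir5125, Rufy3 with Mir6321, and Scamp3 and Fam189b with Mir3541. Ddx5, a helicase that works with Drosha, and Mir3064 had 54.7, 65.5 and 30.0 FPKM in manipulated and 81.0, 49.1 and 58.2 FPKM in untreated libraries, which overlapped. Srrm2, a splicing factor gene, with Mir5125 had 23.7, 22.5 and 18.4 FPKM in manipulated and 36.7, 27.0 and 26.5 FPKM in untreated libraries. This row did not overlap (log2 fold change -0.46, SE 0.28, limma adjusted p 0.352), but with median-ratio scaling it did, at a log2 fold change of -0.0075. The rows of Rufy3 and of Scamp3 with Fam189b overlapped, with log2 fold changes of -0.52 and -0.40. Mir21, whose partner Vmp1 is an autophagy gene, was joined with it at 11.3 and 12.6 FPKM in manipulated and 15.0 and 15.8 FPKM in untreated libraries, and listed apart at 0 in manipulated replicate 6 and untreated replicate 2.

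Members joined to other small RNA genes stood above the shift. The row of Mir1843b and Scarna3a, a guide RNA of Cajal bodies, was, as deposited, the only member that lay above the untreated range in every manipulated library. With median-ratio scaling Mir151b, Mir3576 (on the single fragments described above) and the rows of Mir2985 and Mir6315 did so too. The row of Mir1843b and Scarna3a had 162, 126 and 104 FPKM in manipulated and 78.3, 86.1 and 43.1 FPKM in untreated libraries, over 140 bases. Its log2 fold change was 0.94 (SE 0.36), at a limma adjusted p of 0.325. The row of Mir1949 and SNORA74 had 53.4, 20.9 and 10.2 FPKM in manipulated and 4.24, 15.8 and 0 FPKM in untreated libraries, which overlapped (log2 fold change 2.42, SE 0.92, adjusted p 0.325). Which of the joined genes gave the fragments cannot be told apart.

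Genes that make, load and remove microRNAs also lay near the shift of all genes, with Adarb1 lowest. Of 33 listed genes, 21 had a row of their own in all libraries with a mean of at least 1 FPKM. By limma 0 of the 21 passed the adjusted p, and 3 had an unadjusted p under 0.05. Of all genes tested, 0.357% passed and 15.1% had such an unadjusted p. All 21 had a log2 fold change below 0, with a median of -0.33 against -0.36 for all genes. With median-ratio scaling 13 were above 0 and 8 below, with a median of 0.04. As deposited, 7 of the 21 lay below the untreated range without overlap, against 23.7% of all genes.

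**Figure D5:**
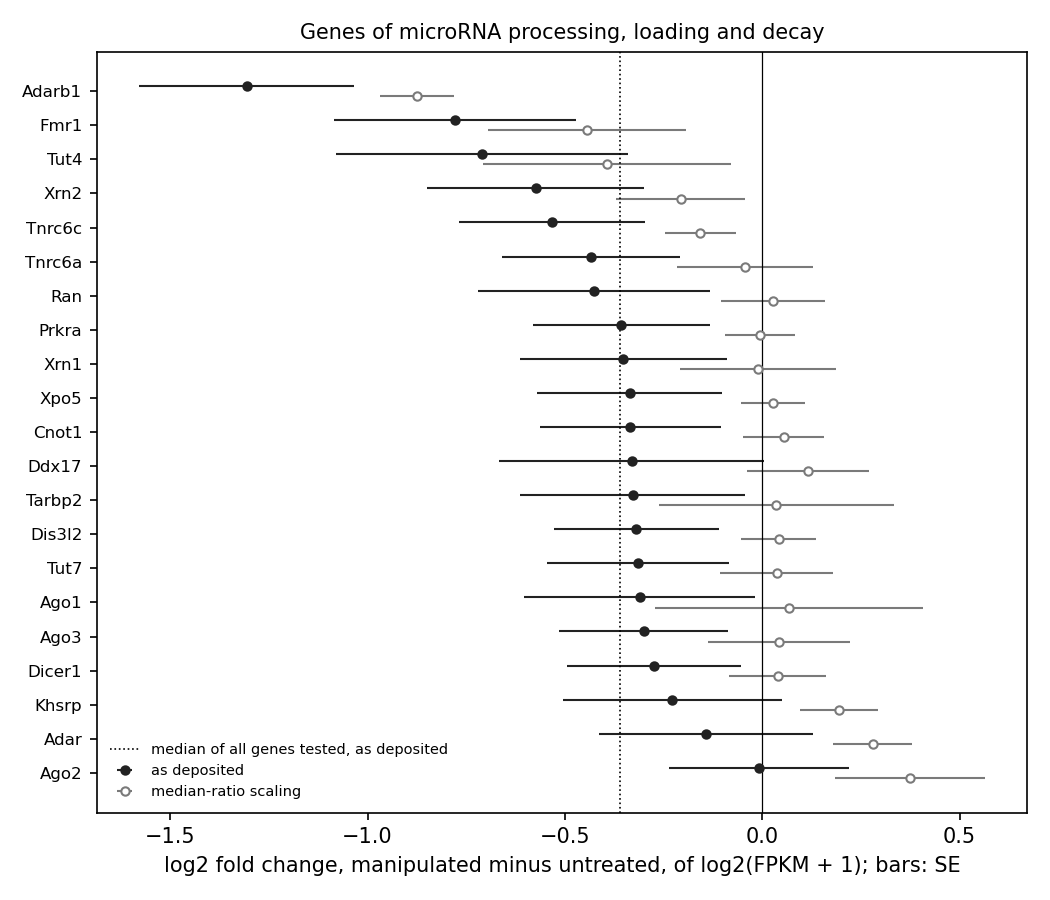
Log2 fold change, manipulated minus untreated, with SE, of 21 genes of microRNA processing, loading and decay, as deposited (filled) and with median-ratio scaling (open). Most filled points lie near the dotted median of all genes, -0.36, and Adarb1 lies lowest under both scalings.

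Adarb1 stood lowest under both scalings. It encodes ADAR2, an enzyme that edits adenosine in double-stranded RNA such as the Gria2 message and some microRNA hairpins. It had 10.03, 10.3 and 6.50 FPKM in manipulated and 25.5, 20.2 and 24.1 FPKM in untreated libraries, without overlap. The log2 fold change was -1.31 (SE 0.27), at a limma adjusted p of 0.146. Median-ratio scaling gave -0.87 (SE 0.09), at an adjusted p of 0.0313, so that it passed there, as did 0.292% of all genes. It passed in 3 of 13 settings, and its adjusted p ran between 0.0313 and 0.383. The marker sums of thalamic and hypothalamic neurons, 14.5 to 17.1 FPKM in manipulated and 113 to 161 FPKM in untreated libraries, separated the groups in the same direction, and their part in this difference was not tested.

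None of the core enzymes measured passed the adjusted p. Dicer1 had 1.69 ± 0.224 FPKM in manipulated and 2.27 ± 0.465 FPKM in untreated rats (SD, n = 3 each). Xpo5 had 3.17 ± 0.711 FPKM in manipulated and 4.26 ± 0.912 FPKM in untreated rats. Ago2, the Argonaute that can cut its targets, had 6.38, 4.20 and 3.94 FPKM in manipulated and 4.57, 4.83 and 4.93 FPKM in untreated libraries, and overlapped. Dgcr8, whose own transcript holds the hairpin of Mir1306, shared a row with it and with Gm24572, at 1.86, 2.82 and 1.40 FPKM in manipulated and 3.62, 1.69 and 2.12 FPKM in untreated libraries. Drosha had no row that could be tested. Among genes of silencing and decay, Fmr1, whose protein binds messenger RNAs at synapses, had 2.13, 2.50 and 1.42 FPKM in manipulated and 6.92, 3.64 and 2.63 FPKM in untreated libraries, without overlap (log2 fold change -0.78, SE 0.31, adjusted p 0.326). With median-ratio scaling Fmr1 was at -0.44 and overlapped. Tnrc6c, a partner of Argonaute, did not overlap under either scaling, at 3.56, 4.12 and 2.62 FPKM in manipulated and 6.62, 4.32 and 5.32 FPKM in untreated libraries.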

How the data were processed

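FPKM values were those the authors deposited in 1 gene-level table for each library, with an interval and a status, per the file headers. Per the submitters' processing notes the build was Rnor_6.0 and the tools STAR 2.7.3a and a Cufflinks of unnamed version. Strandedness, RNA selection, annotation release and read totals are unstated in the sources used here, so total depth is unknown. As a rough guide to relative depth, 1 fragment on hairpin rows of 96 bases was worth 6.73 to 8.69 FPKM in manipulated libraries. In untreated libraries it was worth 7.59 to 8.34 FPKM. The implied fragment number takes the interval as counting error only. Where it falls under 1, as in some joined rows, it is no count of fragments.

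Rows naming a symbol were summed by library for the members. For the test, 3254 symbols that shared a row, 144 at several places, 32 missing from a library and 5 with a failed estimate were left out. That kept 26641, of which 10657 reached a mean of 1 FPKM and were tested by limma 3.58.1 (R 4.3.3) on log2(FPKM + 1) values (mean-variance trend, two-sided, Benjamini-Hochberg adjustment, threshold 0.05). An added fit kept 428 rows that name several genes, with 10980 rows tested. Each rat gave a single library, so p-values measure the spread between rats. On simulated data with 10657 genes the test recovered 19.6% of genes changed by 1 and 93.2% of those changed by 2 on the log2 scale, with a mean of 10.2 false calls in 5 simulations.

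Members, gene lists and alternatives were chosen with earlier results of these data known. Named members are those past the adjusted p, up to 10 in each direction with a mean of at least 1 FPKM and ranges that do not overlap, the 10 highest, and families known in brain; other members named were chosen after their values were seen. Of the genes that make or remove microRNAs, Dgcr8, Dicer1, Xpo5 and Ago2 were named by rule and Adarb1, Fmr1, Tnrc6c and Ddx5 after their values were seen. Positions count from 1. Tables were made with pandas 2.3.3 and numpy 2.4.6 under Python 3.11.15, and figures with matplotlib 3.10.9.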

Additional observations from a re-analysis of the deposited data

Results flagged for a closer look

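Mir3556b on chromosome 13 is outside the members and was listed at 747 FPKM in manipulated replicate 6, with an implied 152 fragments, and at 0 in every untreated library where it had a row of its own. Mir3561 on chromosome 7, also outside the members, was listed at 69.7 FPKM in manipulated replicate 4 and at 48.3 FPKM in manipulated replicate 5, and at 0 in the other manipulated library and in all untreated libraries. Its implied numbers were 12.1 and 7.81 fragments. Groups of 3 libraries were too small for a check of single outlying libraries.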

How the results depend on the processing

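No paired analysis was possible because the groups share no replicate number. The count of 1 member past the adjusted p was 0 without a filter on low values and 0 with a minimum mean of 5 FPKM, where Mir3552 was not tested, and 1 to 2 on leaving out each library in turn, with or without joined rows. The extra members were Mir336, Mir3576 and Mir384, each only with the library left out that went against the difference. With Mir3552 entering through the untreated libraries alone, these counts are a description and not a finding. Hosts stayed at 0 in every setting run. The count of pathway genes was 1, Adarb1, with a minimum mean of 5 FPKM, with median-ratio scaling and with a robust variance prior, and 0 in the other settings. The mean number of members detected, 78.7 in manipulated and 86.7 in untreated libraries, was 63.0 and 73.3 at 1 FPKM or more, 43.3 and 41.7 with a lower bound above 0, and 50.0 in each group for members above 0 in all 6 libraries.

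Among the genes and rows named, signs turned in some log2 fold changes that did not pass the adjusted p. With median-ratio scaling this held for Mir124-2 (0.12), Aatk (0.13), Dnm1 (0.0052), Ago2 (0.37), Dicer1 (0.0386), Xpo5 (0.0276), Adar (0.28) and the rows of Gria2 (0.34), Dgcr8 (0.13), Ctdsp1 (0.19) and Npepo (0.0710), and over the whole lists 13 of 21 pathway genes and 15 of 28 host rows then lay above 0. Mir344i turned with a pseudocount of 0.1 (0.51) and Ago2 with one of 5 (9.45e-04). On leaving out each library, the values ran over -1.26 to 0.27 for Mir344i, -0.79 to 1.41 for Mir3557, -0.49 to 0.10 for Mir124-2, -0.0558 to 0.14 for Ppargc1b, -0.19 to 0.10 for Ago2, -0.31 to 0.0296 for Adar, -0.28 to 0.16 for the row of Gria2 (0.0269 without untreated replicate 1) and -0.37 to 0.0385 for that of Dgcr8. The cause was not tested. Joined rows with scaling or with a library left out, and rows summed by position, were alternatives chosen after seeing the data.

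Depth limits the hairpins: a row is so short that 1 fragment alone can put it above 1 FPKM. Rows that changed partners between libraries limit the clustered members, and the sections differed in markers of deep brain regions.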
